A study of Mus musculus with 6 samples.

Results

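Mitochondrial biogenesis and mitochondrial dynamics are run by a small set of nuclear genes, of which 10 are described here: *Ppargc1a*, *Ppargc1b*, *Esrra*, *Esrrg*, *Nrf1*, *Perm1*, *Mfn1*, *Mfn2*, *Opa1* and *Dnm1l*. They were chosen by their symbol in the first column of the deposited expression table, which holds 41709 genes. No measured value entered that rule, but the choice was made with earlier results of these data known. All 10 were found and all passed the filter on low values, a mean of at least 1 TPM over the libraries. TPM states how abundant the transcripts of a gene are within a library, corrected for their length, on a scale with the same total in every library.

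The PGC-1 coactivators, encoded by *Ppargc1a* and *Ppargc1b*, do not bind DNA themselves but are recruited by transcription factors such as the estrogen-related receptors (*Esrra*, *Esrrg*) and nuclear respiratory factor NRF1, and thereby raise the transcription of nuclear genes for respiration and for the upkeep of mitochondrial DNA. In skeletal muscle this circuit is known to respond to endurance exercise, and *Perm1*, a gene active in striated muscle, is induced by PGC-1 and the estrogen-related receptors. The mitochondria so made form a network that is shaped by opposed GTPases of the dynamin family: the mitofusins (*Mfn1*, *Mfn2*) fuse outer membranes, OPA1 fuses inner membranes and holds the cristae in shape, and DRP1, the product of *Dnm1l*, cuts mitochondria apart.

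RNA-seq was done on 6 tibialis anterior (TA) muscles, 3 electroporated with wild-type *Lrpprc* (LrpprcWT) and 3 with the P27A variant (LrpprcP27A), in which proline 27 is replaced by alanine so that it cannot be hydroxylated. Both groups therefore carried a Flag-tagged mouse *Lrpprc* plasmid driven by the CMV promoter, which is not specific to muscle fibres. Per the study's methods the mice were male C57BL/6J, each mouse received LrpprcWT in the TA of 1 leg and LrpprcP27A in the other, and the muscles were collected 14 days later. The methods name mice of 4 and of 27 months, and the age of the mice that were sequenced is not given in the sources used here.

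LRPPRC itself is a mitochondrial RNA-binding protein that stabilises mitochondrial mRNAs. The study also describes it as a transcriptional coactivator, earlier reported to interact with PGC-1α, the product of *Ppargc1a*. By western blot the study found no significant difference in PGC-1α protein between LrpprcP27A and LrpprcWT muscles. Protein was not measured in the data used here. *Lrpprc* stood at 35.1, 37.0 and 75.2 TPM in LrpprcWT replicates 1, 2 and 3 and at 26.9, 29.7 and 26.0 TPM in LrpprcP27A, and the groups did not overlap. The difference did not pass limma's test (log2 fold change -0.72, SE 0.26, adjusted p = 0.0652) but did with the libraries treated as pairs (adjusted p = 0.00243). On the rescaled values described below, it was -0.36 and passed neither test (adjusted p = 0.331, and 0.245 as pairs). These reads do not separate plasmid from endogenous *Lrpprc*, so the labels were not checked by this gene. By qRT-PCR the study found similar *Lrpprc* mRNA levels with both variants, higher than in mock-electroporated muscles. Whether the sequenced muscles were among those is not stated. Every library sums to 1000000 TPM, and the read depth is unknown. Genes above 0 numbered 18603 to 19053 with LrpprcWT and 17774 to 18197 with LrpprcP27A. Transcripts of the mitochondrial genome took 36.0 to 45.2% of the TPM with LrpprcWT and 44.2 to 46.1% with LrpprcP27A, and *Rn18s-rs5*, a gene model that resembles ribosomal RNA, stood at 8874 to 17614 TPM and at 37023 to 44435 TPM respectively. As TPM has a fixed total, a gene's value also depends on how much the other genes of its library take, so the calls are given on the deposited scale and on a rescaled one.

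Promoter sequences were searched for the sites of factors known in this circuit, and no motif was common to the members. Of the 10 genes, 9 matched the RefSeq promoter table (GRCm38.p6) with 16 promoters, each from 250 bases before to 50 bases after a start site, and *Ppargc1b* did not. Both strands were searched for the core of the NRF1 site, GCGCANGCG, the estrogen-related receptor element, AAGGTCA, the ETS site bound by GABP, CCGGAAG, the cyclic AMP response element, TGACGTC or in full TGACGTCA, and the E-box, CACGTG. NRF1 cores stood in 2 of the 16 promoters (6.25% of all 32851 promoters), the receptor element in 1 (4.72%), the ETS site in 2 (8.86%), and the short and the full cyclic AMP elements (3.21% and 1.79%) and the E-box (7.15%) in 0. A match describes letters and not a bound site, and a missing match says only that these letters are not in the window. The 4 promoters with a match upstream of the start are shown, because they belong to members of both arms of the system, together with the promoter of *Dnm1l*, the 1 member that passed the test in the comparison of the groups. They run 5′ to 3′ on the strand of the gene, with the matched motif in capitals.

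*Perm1*, chr4:156215680-156215776, plus strand, receptor element read from the other strand and starting 202 bases before the start site: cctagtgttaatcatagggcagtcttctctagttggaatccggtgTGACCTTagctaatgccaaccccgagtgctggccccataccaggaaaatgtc
*Esrra*, chr19:6921896-6921994, minus strand, NRF1 core starting 141 bases before the start site: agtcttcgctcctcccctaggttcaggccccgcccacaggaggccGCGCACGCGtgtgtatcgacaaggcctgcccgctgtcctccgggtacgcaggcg
*Opa1*, chr16:29579230-29579329, plus strand, NRF1 core starting 59 bases before the start site and overlapped by the same core on the other strand: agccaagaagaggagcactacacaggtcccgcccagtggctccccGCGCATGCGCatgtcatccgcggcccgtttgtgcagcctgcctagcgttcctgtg
*Mfn1*, chr3:32529393-32529481, plus strand, ETS site starting 44 bases before the start site: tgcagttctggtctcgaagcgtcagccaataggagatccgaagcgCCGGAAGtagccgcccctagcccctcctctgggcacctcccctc
*Dnm1l*, chr16:16359032-16359131, minus strand, the 100 bases before its most upstream start site, with no match: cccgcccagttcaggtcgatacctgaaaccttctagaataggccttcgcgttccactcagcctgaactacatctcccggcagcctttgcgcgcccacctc

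The *Perm1* promoter thus held the receptor element, *Esrra* and *Opa1* held the NRF1 core, and *Mfn1* held the ETS site. The other *Dnm1l* promoter in the table held an ETS site 12 bases after its start. The single *Ppargc1a* promoter in the table held none of the motifs.

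The members spanned a wide range of expression in these muscles. Over the 6 libraries *Mfn2* was the highest with a mean of 255.2 TPM, followed by *Perm1* (153.0), *Mfn1* (67.0), *Esrra* (41.3), *Opa1* (35.5), *Dnm1l* (32.3), *Ppargc1a* (16.2), *Esrrg* (7.89), *Ppargc1b* (7.46) and *Nrf1* (2.10). The ranges of *Mfn2*, *Perm1* and *Mfn1* did not touch those of their neighbours in this order, nor did that of *Nrf1*. From *Esrra* down to *Ppargc1b*, each gene's range over both groups overlapped that of the next. Within single libraries, however, *Esrra* was above *Opa1*, *Dnm1l* above *Ppargc1a* and *Ppargc1a* above *Esrrg* in 6 of 6, whereas *Opa1* was above *Dnm1l* in 4 and *Esrrg* above *Ppargc1b* in 5, so the order of these last 2 pairs did not hold in every library. The mitofusins varied least of the 10: the highest library stood above the lowest by 1.16-fold for *Mfn1* and 1.18-fold for *Mfn2*, against 2.13-fold for *Ppargc1b* and 4.70-fold for *Ppargc1a*.

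**Figure D1:**
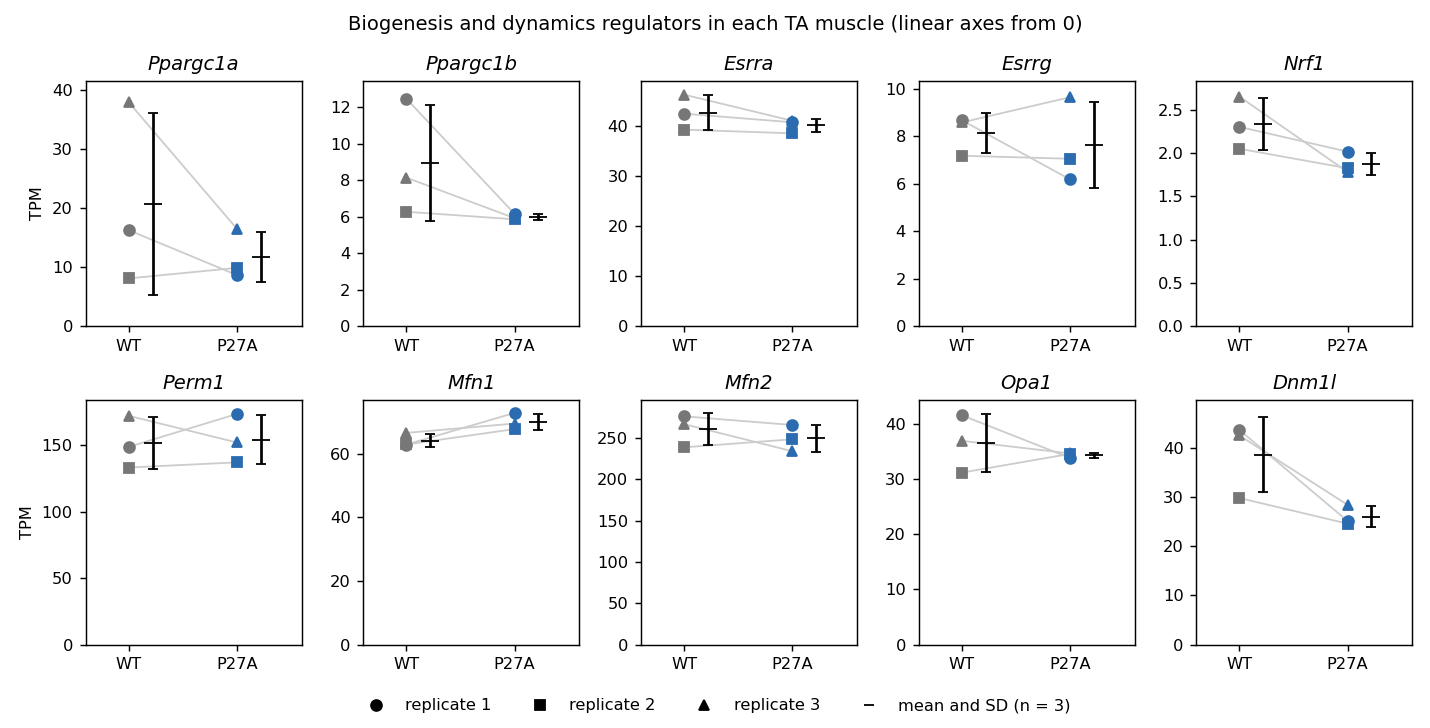
TPM of the 10 genes (y axes, linear from 0) in each TA muscle with LrpprcWT (grey) and LrpprcP27A (blue); circles, squares and triangles are replicates 1, 2 and 3, lines join libraries of the same number, and bars show the mean and SD (n = 3). *Dnm1l*, *Ppargc1b* and *Nrf1* are lower in every LrpprcP27A library than in any LrpprcWT library and *Mfn1* is higher, while *Ppargc1a* ranges from 8.07 to 37.9 TPM within LrpprcWT alone.

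On the values as deposited, the fission gene *Dnm1l* was the member that passed the unpaired test of LrpprcP27A against LrpprcWT. It fell to 0.674 of its LrpprcWT level and was the 1 member called lower of 10 (limma, adjusted p under 0.05), where 23.3% of the 11611 tested genes were called lower. Of the members 0 were called higher, where 1.34% of all genes were, and at an unadjusted p under 0.05 the count of higher members was also 0. The median log2 fold change of the members was -0.09, beside -0.32 for all tested genes, and 7 of the 10 lay above that median of all genes, the exceptions being *Ppargc1a*, *Ppargc1b* and *Dnm1l*. Groups that do not overlap were found for 3 members that were lower with LrpprcP27A (*Ppargc1b*, *Nrf1* and *Dnm1l*, where 47.6% of all genes were lower in this way) and for 1 that was higher (*Mfn1*, where 3.51% of all genes were).

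These counts moved with the pairing and with the scaling. With the replicate number as a block, which compares the libraries of the same number, *Ppargc1a*, *Ppargc1b* and *Dnm1l* were called lower and 0 members higher (48.4% and 2.69% of all genes). Under median-of-ratios scaling, which divides each library by the median ratio of its genes to their typical level, the median of all genes moved from -0.32 to -0.0047, and the share of genes below 0 from 88.0 to 50.8%. On that scale 0 members were called lower, also at an unadjusted p under 0.05, and 2, *Perm1* and *Mfn1*, were called higher (6.03% and 5.25% of all genes). With both the scaling and the block, 0 were lower and 5 were higher, namely *Esrra*, *Perm1*, *Mfn1*, *Mfn2* and *Opa1* (15.8% and 13.4% of all genes).

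**Figure D2:**
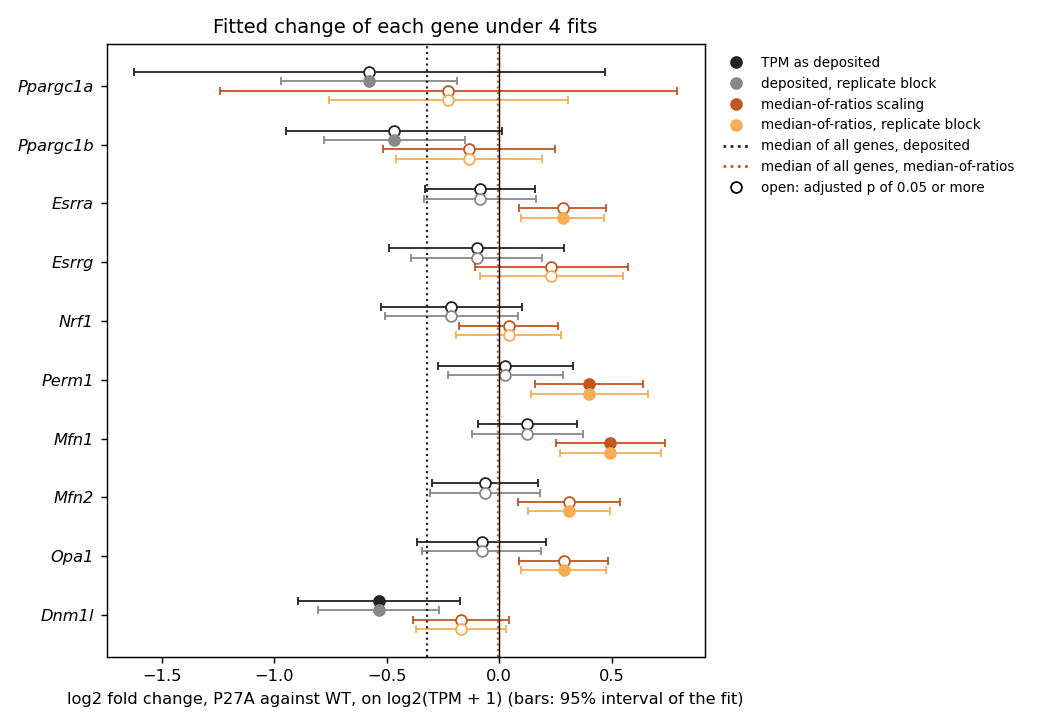
Log2 fold change of each gene, LrpprcP27A against LrpprcWT, on log2(TPM + 1) (x axis, bars 95% interval of the fit) under 4 fits, with filled points where the adjusted p is under 0.05 and dotted lines at the median of all tested genes. On the deposited scale *Dnm1l* is called (-0.54), with the block also *Ppargc1a* and *Ppargc1b*; under median-of-ratios scaling *Esrra*, *Esrrg*, *Nrf1*, *Mfn2* and *Opa1* turn from below to above 0.

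Among the coactivators, *Ppargc1a* (chr5:51611592-51725068, minus strand, GRCm39) encodes PGC-1α. It stood at 16.2, 8.07 and 37.9 TPM in LrpprcWT replicates 1, 2 and 3 and at 8.64, 9.87 and 16.5 TPM in LrpprcP27A. The highest and the lowest of the 6 values were both LrpprcWT muscles, so the groups overlapped. The log2 fold change was -0.58 with an SE of 0.46 and a 95% interval from -1.62 to 0.47 (adjusted p = 0.324). Within the numbered pairs the log2 difference was -0.84, 0.26 and -1.15, and the fit with the block called it (adjusted p = 0.0160) although 1 pair went the other way. The SE of that fit was 0.19, which limma sets partly from the spread of other genes and not from these pairs alone. Leaving out LrpprcWT replicate 3, the library with the highest value, took the log2 fold change to -0.03 (adjusted p = 0.950), and leaving out LrpprcWT replicate 2 took it to -1.08 (adjusted p = 0.0460). Under median-of-ratios scaling it was -0.23 and was called neither without the block (adjusted p = 0.746) nor with it (adjusted p = 0.462). Over all alternatives the adjusted p ran from 0.0160 to 0.950.

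The related coactivator PGC-1β is encoded by *Ppargc1b* (chr18:61431195-61533735, minus strand), which was measured at 12.5, 6.26 and 8.14 TPM with LrpprcWT and at 6.15, 5.85 and 5.91 TPM with LrpprcP27A. Every LrpprcP27A muscle was below every LrpprcWT muscle, and the LrpprcP27A muscles lay close together (SD 0.158 TPM against 3.18, n = 3 each). The log2 fold change of -0.47 (SE 0.21, 95% interval -0.95 to 0.015) did not pass the test (adjusted p = 0.115). It passed with the block (adjusted p = 0.0158), all 3 pairs being lower by 0.91, 0.084 and 0.40 in size, and without LrpprcWT replicate 2 (-0.67, adjusted p = 0.0151). Without LrpprcWT replicate 1 it was -0.22 (adjusted p = 0.341). Median-of-ratios scaling took it to -0.13, which passed neither without the block (adjusted p = 0.589) nor with it (adjusted p = 0.470), and over all alternatives the adjusted p ran from 0.0151 to 0.719.

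The nuclear receptors that recruit PGC-1 gave smaller differences. *Esrra* (chr19:6888338-6899336, minus strand), the main estrogen-related receptor of oxidative tissue, was at 42.4, 39.2 and 46.2 TPM with LrpprcWT and at 40.7, 38.5 and 41.0 TPM with LrpprcP27A. The groups overlapped, and the log2 fold change was -0.08 (SE 0.11, 95% interval -0.33 to 0.16, adjusted p = 0.532). *Esrrg* (chr1:187340988-187947082, plus strand), the receptor associated with oxidative fibres, was at 8.68, 7.18 and 8.59 TPM with LrpprcWT and at 6.19, 7.05 and 9.65 TPM with LrpprcP27A. The LrpprcP27A group held both the lowest and the highest library, and the log2 fold change was -0.10 (SE 0.17, 95% interval -0.49 to 0.29, adjusted p = 0.641). For *Esrra* the 3 pairs differed by -0.06, -0.03 and -0.17, all downward, while those of *Esrrg* went both ways. On the median-of-ratios scale both turned positive, *Esrra* to 0.28 (adjusted p = 0.0651, and 0.0402 with the block) and *Esrrg* to 0.23 (adjusted p = 0.293, and 0.218 with the block). Over all alternatives the adjusted p ran from 0.0402 to 0.857 for *Esrra* and from 0.217 to 0.936 for *Esrrg*.

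*Nrf1* (chr6:30047892-30153462, plus strand) encodes the factor that drives many nuclear genes of the respiratory chain, and it was the lowest of the 10. Its values were 2.30, 2.05 and 2.65 TPM with LrpprcWT and 2.02, 1.82 and 1.78 TPM with LrpprcP27A. Every LrpprcP27A library was below every LrpprcWT library, although LrpprcP27A replicate 1 and LrpprcWT replicate 2 nearly met. The log2 fold change was -0.21 (SE 0.14, 95% interval -0.53 to 0.10) and did not pass the test (adjusted p = 0.237, and 0.0765 to 0.777 over the alternatives), and under median-of-ratios scaling it turned to 0.04 (adjusted p = 0.777). At such low values the added 1 TPM of the log scale understates a change, and the ratio of the means was 0.802.

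*Perm1* (chr4:156300325-156314305, plus strand), the muscle gene downstream of PGC-1 and the estrogen-related receptors, stood at 148.9, 133.3 and 172.3 TPM with LrpprcWT and at 173.7, 137.3 and 152.2 TPM with LrpprcP27A. The groups covered nearly the same range, with means of 151.5 ± 19.6 and 154.4 ± 18.3 TPM (SD, n = 3). Its log2 fold change was 0.03 (SE 0.13, 95% interval -0.27 to 0.33, adjusted p = 0.867), and the pairs differed by 0.22, 0.04 and -0.18. Under median-of-ratios scaling it was 0.40 and passed the test (adjusted p = 0.0489, and 0.0388 with the block, the lowest of a range up to 0.934). *Perm1* stood above 89.4% of all tested genes by its log2 fold change, and *Mfn1* above 93.4%.

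Of the fusion genes, *Mfn1* (chr3:32583599-32645888, plus strand) had the most distinct pattern. It was measured at 62.9, 62.9 and 66.5 TPM with LrpprcWT and at 72.8, 67.7 and 69.4 TPM with LrpprcP27A. All LrpprcP27A muscles were above all LrpprcWT muscles, with means of 70.0 ± 2.58 and 64.1 ± 2.11 TPM (SD, n = 3). The log2 fold change of 0.12 (SE 0.097, 95% interval -0.10 to 0.35) did not pass the test on the deposited scale (adjusted p = 0.312). It passed at 0.49 under median-of-ratios scaling (adjusted p = 0.0346, and 0.0158 with the block) and at 0.38 under quantile normalization (adjusted p = 0.0492), in a range of 0.0158 to 0.581 over all alternatives.

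*Mfn2* (chr4:147955508-147989585, minus strand), the mitofusin that also tethers mitochondria to the endoplasmic reticulum, was at 276.5, 238.9 and 267.1 TPM with LrpprcWT and at 266.0, 248.7 and 234.2 TPM with LrpprcP27A. The groups overlapped, and the log2 fold change was -0.06 (SE 0.10, 95% interval -0.30 to 0.17, adjusted p = 0.632). *Opa1* (chr16:29398108-29473858, plus strand) was at 41.6, 31.2 and 37.0 TPM with LrpprcWT and at 33.8, 34.6 and 34.7 TPM with LrpprcP27A. Here the LrpprcP27A muscles lay within the range of LrpprcWT and were far closer to each other (SD 0.445 against 5.21 TPM, n = 3 each), and the log2 fold change was -0.08 (SE 0.13, 95% interval -0.37 to 0.21, adjusted p = 0.622). On the median-of-ratios scale both were above 0, *Mfn2* at 0.31 (adjusted p = 0.0746) and *Opa1* at 0.29 (adjusted p = 0.0643), and both passed once the block was added (adjusted p = 0.0295 and 0.0405). Their adjusted p ran up to 0.923 and 0.933 over the other alternatives.

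*Dnm1l* (chr16:16128677-16176904, minus strand) encodes DRP1, the dynamin-related GTPase that is recruited from the cytosol to constrict mitochondria. It was measured at 43.6, 29.8 and 42.5 TPM with LrpprcWT and at 25.1, 24.6 and 28.4 TPM with LrpprcP27A. All LrpprcP27A muscles were below all LrpprcWT muscles, LrpprcWT replicate 2 being the closest to them, and the means were 38.6 ± 7.68 and 26.0 ± 2.06 TPM (SD, n = 3). The log2 fold change was -0.54 (SE 0.16, 95% interval -0.90 to -0.17, adjusted p = 0.0424), and all pairs were lower, with differences of -0.77, -0.27 and -0.57. Of all tested genes, 23.7% had a lower log2 fold change than this. The block gave the lowest adjusted p, 0.00255. With median-of-ratios factors it shrank to -0.17 and did not pass the test (adjusted p = 0.227, the highest of the range, and 0.161 with the block). Leaving out a library lost the call except for LrpprcWT replicate 2: the adjusted p was 0.138 without LrpprcWT replicate 1 and 0.150 without replicate 3, 0.0910, 0.132 and 0.0829 without LrpprcP27A replicates 1, 2 and 3, and 0.00361 without LrpprcWT replicate 2.

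Ratios between members within a library do not move with a scaling factor of that library, apart from the added 1 TPM. They were compared by the exact permutation test, two-sided, for 6 ratios, and the smallest p that 3 against 3 muscles can give is 0.1. The summed TPM of the fusion genes *Mfn1*, *Mfn2* and *Opa1* was 8.74, 11.2 and 8.73 times that of *Dnm1l* with LrpprcWT and 14.9, 14.3 and 11.9 times with LrpprcP27A. Most of that sum was *Mfn2*, and *Dnm1l* is 1 of several fission genes. The ratio was higher in every LrpprcP27A library than in any LrpprcWT library and in 3 of 3 pairs, by 0.51 on the log2 scale, at the smallest p the design allows (exact permutation p = 0.1, adjusted over the 6 ratios 0.3). It stayed between 0.45 and 0.62 with any 1 library left out. The ratio of *Mfn2* to *Mfn1* was 4.40, 3.80 and 4.02 with LrpprcWT and 3.66, 3.67 and 3.37 with LrpprcP27A. It was lower in every LrpprcP27A library, by 0.19 in size on the log2 scale (exact permutation p = 0.1, adjusted 0.3).

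Ratios to *Ppargc1a* carried the wide spread of that gene. *Perm1* stood at 9.17, 16.5 and 4.54 times *Ppargc1a* with LrpprcWT and at 20.1, 13.9 and 9.23 times with LrpprcP27A, and the groups overlapped (log2 difference 0.61, exact permutation p = 0.4, adjusted 0.8). That difference was 0.16 without LrpprcWT replicate 3, 0.35 without LrpprcP27A replicate 1 and 1.02 without LrpprcWT replicate 2. Over the 6 muscles the highest value was 1.30-fold the lowest for *Perm1* and 4.70-fold for *Ppargc1a*. The log2 differences of the ratios of *Nrf1* to *Ppargc1a* (0.37, exact permutation p = 0.7, adjusted 1), of *Ppargc1b* to *Ppargc1a* (0.11, exact permutation p = 1) and of *Esrrg* to *Esrra* (-0.016, exact permutation p = 1) came from groups that overlapped as well. Without LrpprcWT replicate 3 the ratios of *Nrf1* and of *Ppargc1b* to *Ppargc1a* turned to -0.11 and -0.47.

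**Figure D3:**
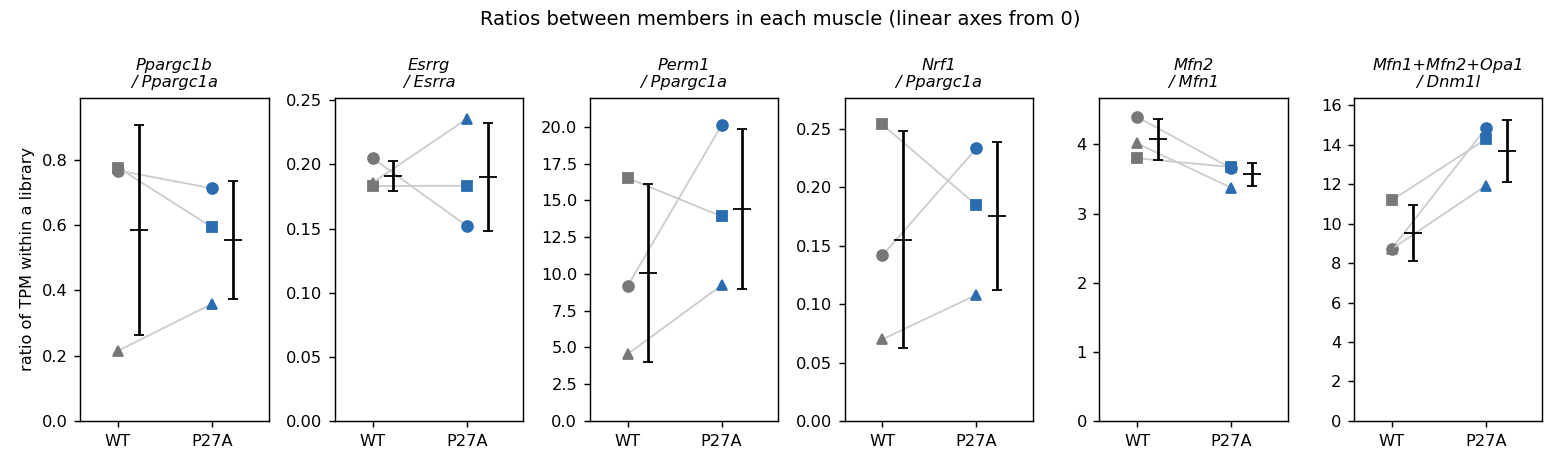
Ratios of TPM between members within each library (y axes, linear from 0) for LrpprcWT (grey) and LrpprcP27A (blue); circles, squares and triangles are replicates 1, 2 and 3, lines join libraries of the same number, and bars show the mean and SD (n = 3). The groups separate for the summed fusion genes over *Dnm1l* (8.73 to 11.2 with LrpprcWT, 11.9 to 14.9 with LrpprcP27A) and for *Mfn2* over *Mfn1*, and they overlap for the ratios to *Ppargc1a* and for *Esrrg* over *Esrra*.

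The wider pathways around these genes were described with 8 lists, in which few genes passed the test in either direction (background 23.3% lower and 1.34% higher). Upstream of PGC-1, 2 of 26 tested signalling genes were called lower and 2 higher, with a list median of -0.29 beside -0.32 for all genes. *Prkaa1*, a catalytic subunit of AMP-activated kinase, fell from 9.39 ± 1.80 to 5.78 ± 0.268 TPM (SD, n = 3, log2 fold change -0.60, adjusted p = 0.0308), and *Camk2b*, a calcium/calmodulin-dependent kinase, fell from 70.1 ± 6.34 to 50.6 ± 2.77 TPM (-0.46, adjusted p = 0.0271). In the other direction *Prkab2*, the regulatory AMP-activated kinase subunit of muscle, stood at 103.8, 126.8 and 93.7 TPM with LrpprcWT and at 135.4, 172.8 and 175.9 TPM with LrpprcP27A (0.58, adjusted p = 0.0308). *Mstn*, the secreted inhibitor of muscle growth, stood at 5.57, 10.3 and 9.10 TPM and at 12.5, 20.7 and 24.2 TPM (1.10, adjusted p = 0.0279). Neither gene's groups overlapped, and both were still called under median-of-ratios scaling (adjusted p = 0.0400 and 0.0380), whereas *Prkaa1* went to -0.27 (adjusted p = 0.0910) and *Camk2b* to -0.09 (adjusted p = 0.515) and lost their calls.

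Of the transcription factors and cofactors that work with PGC-1, 2 of 24 were called lower and 1 higher, with a median of -0.30. *Rb1*, the retinoblastoma repressor, fell from 8.79 ± 2.44 to 4.78 ± 0.128 TPM (SD, n = 3, log2 fold change -0.73, adjusted p = 0.0319) and the general factor *Sp1* from 8.48 ± 1.503 to 5.55 ± 0.300 TPM (-0.52, adjusted p = 0.0407). *Rxra*, the retinoid receptor that pairs with PPAR and thyroid receptors, was at 40.6, 44.2 and 38.7 TPM with LrpprcWT and at 52.4, 53.7 and 51.3 TPM with LrpprcP27A, without overlap (0.34, adjusted p = 0.0434, and 0.0336 under median-of-ratios scaling).

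Further downstream, 2 of 21 tested genes of mitochondrial DNA maintenance and transcription were called lower and 0 higher (median -0.27): *Mpv17*, an inner membrane protein needed for mitochondrial DNA upkeep, fell from 20.2 to 11.98 TPM (-0.70, adjusted p = 0.0221), and *Mterf2*, of the mitochondrial transcription termination factor family, from 20.3 to 14.4 TPM (-0.46, adjusted p = 0.0491). Of the muscle genes listed here as targets of PGC-1 and the estrogen-related receptors, 4 of 28 were called lower and 0 higher, with a median of -0.20. Of the 28, 23 lay above the median of all genes. Whether each listed gene responds to these factors in this muscle was not tested. The largest decrease was that of *Ankrd1*, a stretch-responsive sarcomere protein, from 104.6, 74.1 and 109.5 TPM with LrpprcWT to 36.4, 12.7 and 21.8 TPM with LrpprcP27A (-2.08, adjusted p = 0.0125), followed by *Ucp2*, an inner membrane carrier, from 9.97 to 4.46 TPM (-0.96, adjusted p = 0.0308). The other genes of this list that were called, named here after their values were seen, were *Cycs*, cytochrome c, from 135.8 to 98.4 TPM (-0.46, adjusted p = 0.0267) and *Uqcrc2*, a core subunit of complex III, from 456.8 to 348.9 TPM (-0.38, adjusted p = 0.0417).

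Around the fusion GTPases, 2 of 15 genes of fusion and OPA1 processing were called lower and 0 higher (median -0.23). They were *Bak1*, from 33.2 to 18.2 TPM (-0.82, adjusted p = 0.0230), and *Bax*, from 15.9 to 9.11 TPM (-0.70, adjusted p = 0.0401), which are best known as effectors of apoptosis at the outer membrane. Around DRP1, 1 of 15 fission genes was called lower and 1 higher (median -0.23). *Dnm2*, a dynamin of membrane scission, fell from 25.5 ± 3.69 to 18.0 ± 1.69 TPM (SD, n = 3, -0.47, adjusted p = 0.0428). *Gdap1*, an outer membrane fission factor best known from neurons, was at 1.65, 2.51 and 1.71 TPM with LrpprcWT and at 2.53, 7.05 and 6.40 TPM with LrpprcP27A, where the lowest LrpprcP27A library lay just above the highest LrpprcWT library (1.02, adjusted p = 0.0408).

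In the MICOS complex, which holds cristae junctions, 2 of 12 genes were called lower and 0 higher (median -0.32): *Micos13* fell from 63.5 to 43.7 TPM (-0.52, adjusted p = 0.0305) and *Apool* from 22.0 to 15.6 TPM (-0.46, adjusted p = 0.0400). Of the genes of mitochondrial transport and tethering, 1 of 17 was called lower and 0 higher (median -0.16), namely *Tomm22*, a receptor of the outer membrane import pore, from 51.5 to 36.2 TPM (-0.48, adjusted p = 0.0458). These decreases depended on the scale. Under median-of-ratios scaling 3 of the 14 lower list genes named by the rule were still called, *Mpv17* (-0.34, adjusted p = 0.0474), *Ankrd1* (-1.71, adjusted p = 0.0284) and *Bak1* (-0.46, adjusted p = 0.0466), and 11 were not. Among the latter *Mterf2* went to -0.10 (adjusted p = 0.420), *Dnm2* to -0.11 (0.369), *Apool* to -0.11 (0.327), *Tomm22* to -0.11 (0.391), *Micos13* to -0.15 (0.338) and *Sp1* to -0.19 (0.183), while *Bax* (-0.35, adjusted p = 0.111), *Rb1* (-0.40, adjusted p = 0.0707) and *Ucp2* (-0.63, adjusted p = 0.0882) kept more of their difference. *Cycs* went to -0.08 (adjusted p = 0.566) and *Uqcrc2* to -0.0065 (adjusted p = 0.966). Of the 4 higher genes, *Gdap1* missed the threshold on that scale (1.29, adjusted p = 0.0534) and 3 were called.

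Calls over the 8 lists, in the order given, were 0, 0, 1, 1, 1, 0, 0 and 0 lower and 4, 2, 1, 1, 0, 0, 1 and 1 higher under median-of-ratios scaling, where 6.03% and 5.25% of all genes were called. With the replicate block they were 13, 11, 7, 6, 7, 6, 6 and 4 lower and 2, 2, 1, 0, 0, 1, 0 and 0 higher, where 48.4% and 2.69% of all genes were. Of the 18 list genes named by the rule, 11 were called in only 1 of the 6 fits that left out 1 library, 6 in 2 fits, and *Ankrd1* in 5. The highest adjusted p of these genes ran from 0.0897 (*Ankrd1*, without LrpprcWT replicate 3) to 0.175 (*Rxra*, without LrpprcP27A replicate 2).

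**Figure D4:**
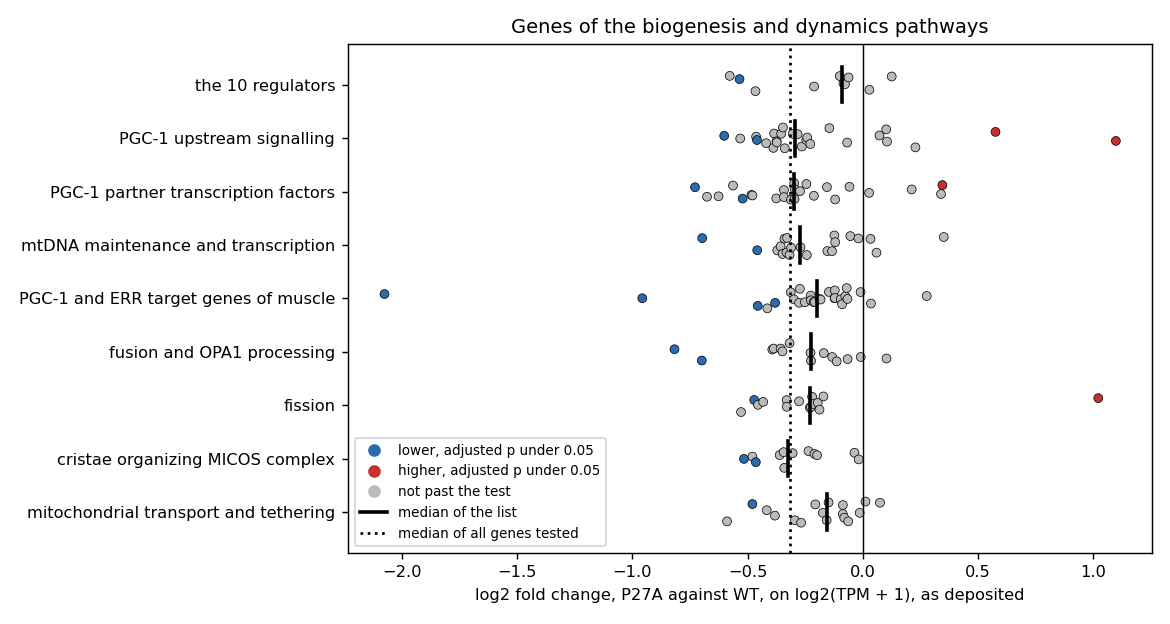
Log2 fold change of each tested gene, LrpprcP27A against LrpprcWT, on log2(TPM + 1) as deposited (x axis), for the 10 regulators and the 8 lists around them; blue and red points passed the test lower and higher, black bars are list medians and the dotted line is the median of all tested genes, -0.32. The 10 regulators have a median of -0.09 with 1 gene called lower, and *Ankrd1* (-2.08) and *Mstn* (1.10) are the lowest and highest points.

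The TA muscle is a bulk tissue, in which fewer cells of a type and less RNA per cell cannot be told apart, and markers of several cell types moved with the groups. Markers of skeletal muscle fibres summed to 145271 to 160271 TPM with LrpprcWT and to 135416 to 153449 TPM with LrpprcP27A, so the defining markers of the labelled tissue were present, with 2 of 12 called lower and 1 higher. Slow fibre markers summed to 118 to 208 TPM with LrpprcWT and 36.9 to 48.4 TPM with LrpprcP27A (5 of 7 called lower). Macrophage and leukocyte markers summed to 353.6 to 689.6 and 120.0 to 245.9 TPM (11 of 12 lower), and fibroblast markers to 1016 to 1655 and 287.9 to 599.7 TPM (8 of 9 lower). Satellite cell markers summed to 84.9 to 103.8 and 57.4 to 61.7 TPM (3 of 6 lower), and keratinocyte markers to 4.31 to 6.01 and 2.40 to 3.23 TPM (1 of 2 lower), with *Krt5* at 0 in all libraries. The sums of both groups overlapped for endothelial and pericyte markers (336.0 to 526.3 and 268.9 to 351.2 TPM, 3 of 10 lower), Schwann cell and nerve markers (54.5 to 69.6 and 31.3 to 62.2 TPM, 1 of 5 lower) and brown adipocyte markers, a list that holds *Ppargc1a* itself (13.3 to 46.1 and 11.2 to 19.5 TPM, 2 of 3 lower). Adipocyte markers summed to 76.6 to 111.8 and 51.9 to 68.9 TPM (1 of 3 lower). Most of these sums was the gene called lower, *Fabp4* (71.8 to 110.0 and 49.9 to 62.6 TPM), named here after its values were seen. The median log2 fold change of the list was 0.06, and 2 of 3 genes lay above the median of all genes. In these lists other than that of muscle fibres 0 genes were called higher. Over all tested genes 23.3% were called lower and 1.34% higher. Under median-of-ratios scaling (6.03% of all genes lower), 4 slow fibre, 4 macrophage and leukocyte and 6 fibroblast markers were called lower. So were 2 brown adipocyte markers and 1 satellite cell marker. For muscle fibre, endothelial and pericyte, Schwann cell and nerve, adipocyte and keratinocyte markers the lower count on that scale was 0. Of the 12 muscle fibre markers, 2 were called higher on that scale (5.25% of all genes). With the block added, 5 were higher (13.4% of all genes) and 1 lower. Their median log2 fold change on that scale was 0.40, beside 0.26 for the 10 regulators, so a shift upward was not particular to the regulators. Slow fibre, macrophage and fibroblast markers were thus lower in the same muscles in which *Dnm1l* was lower, and their part in that result was not tested.

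The genes whose centred log2(TPM + 1) lay closest to that of *Ppargc1a* over the 6 libraries were *Nrip1* (root mean square difference 0.242), *Nfil3* (0.243), *Gm49342* (0.276), *Hspa5* (0.287) and *Mcf2l* (0.291). *Nrip1*, for example, also had its highest and lowest LrpprcWT values in replicates 3 and 2, at 9.19 and 3.03 TPM. Those closest to *Perm1* were *Gon7* (0.0555), *Trip10* (0.0585), *Sctr* (0.0595), *Kcna7* (0.0632) and *Nomo1* (0.0678). Likeness over 6 libraries, which share their composition, is given as a description only.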

How the data were processed

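Per the study's methods, paired-end reads were trimmed, filtered by quality and length and aligned to GRCm39 in CLC Genomics Workbench (version 20.0.4). The authors deposited TPM values of 41709 genes for the 6 libraries, with no further normalization between them. TPM holds no read depth, so counting errors cannot be given.

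Genes with a mean of at least 1 TPM (11611) were taken to log2(TPM + 1) and compared between groups with limma 3.58.1 in R 4.3.3 (empirical Bayes with trend, two-sided, Benjamini-Hochberg over all tested genes, call at an adjusted p under 0.05). On this scale the changes of low genes come out too small. Per the study's methods, samples of a group came from distinct mice, which the labels do not state. Ratios were compared with scipy 1.17.1. Positions come from the GENCODE vM39 annotation of GRCm39, and promoters from RefSeq on GRCm38.p6. The planned comparison of member proteins was not made here.

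The replicate block rests on the shared library numbers 4, 8 and 9 and on the contralateral muscles. The sources do not say outright that a number is a mouse. Deviations from the group means of same-numbered libraries correlated by 0.363, 0.528 and 0.356 over 11611 genes, which are not independent. For libraries of different numbers the correlations ran from -0.362 to 0.0040. Deviations within a group cancel out, so these values are tied to each other.

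The members, the 8 pathway and 10 marker lists and the rules were chosen with earlier results of these data known. The genes named were the members, of each pathway list up to 2 lowest and 2 highest genes that passed the test, *Lrpprc*, and the 5 genes closest to *Ppargc1a* and to *Perm1*. Tested on simulated data for 11611 genes, the fit recovered 75 of 100 genes changed by a log2 fold change of 1 and 97 of 100 changed by 2, and called 4 unchanged genes. The simulated libraries were independent, with no pairs and no shift shared by most genes, and no change smaller than 1 was simulated. These numbers thus give neither the recovery of smaller changes nor the count of false calls in the real libraries. Alternatives were the block, other scalings, filters, pseudocount and tests, and each library left out.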

Additional observations from a re-analysis of the deposited data

How the results depend on the processing

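Depth is unknown, and with 3 libraries a group, leaving out 1 library moved most counts. The cause of the changes below was not tested. The count of members called lower, 1 on the deposited values, was 3 with the replicate block and 0 without the filter, without limma's trend, without moderation, by the Kruskal-Wallis test, under median-of-ratios scaling, quantile normalization and rescaling without mitochondrial genome and ribosomal RNA genes, and with the replicate block under median-of-ratios scaling. By Kruskal-Wallis no gene could be called here. With 3 against 3 libraries the smallest p of that test is 0.0495, which adjusted to 0.0969, so its 0 carries no information. At an unadjusted p under 0.05 the counts without the filter, trend or moderation and under quantile normalization and rescaling were 1 each, and under median-of-ratios scaling 0. By Kruskal-Wallis it was 3, the members whose groups do not overlap. With 1 library left out the count ran from 0 to 3. It was 3 without LrpprcWT replicate 2 and 0 without any other library. The count of members called higher, 0, was 2 under median-of-ratios scaling, 1 under quantile normalization and 5 with the replicate block under median-of-ratios scaling. *Nrf1* was not tested at a mean of at least 5 TPM.

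Over all genes, 2705 were called lower and 156 higher. Lower counts were 42 without the filter, 1560 at a mean of at least 5 TPM, 1 without moderation, 0 by Kruskal-Wallis (5530 at an unadjusted p under 0.05), 5619 with the replicate block, 700 under median-of-ratios scaling, 518 under quantile normalization, 662 after rescaling, and from 15 (without LrpprcWT replicate 3) to 6913 (without LrpprcWT replicate 2) with 1 library left out. Higher counts were 9 without the filter, 0 without moderation (284 at an unadjusted p under 0.05) and by Kruskal-Wallis (407), 312 with the block, 493 under quantile normalization, 610 after median-of-ratios scaling, 1561 with both that scaling and the block, and 3 to 304 with 1 library left out. The 5530 and 407 genes by Kruskal-Wallis are those whose groups do not overlap.

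Log2 fold changes turned from below to above 0 under median-of-ratios scaling (with and without the block), quantile normalization and rescaling for *Esrra* (0.28, 0.19 and 0.10), *Esrrg* (0.23, 0.28 and 0.069), *Mfn2* (0.31, 0.15 and 0.13) and *Opa1* (0.29, 0.21 and 0.11), and under the first 2 for *Nrf1* (0.043 and 0.19). With 1 library left out, *Esrrg* ran from -0.26 to 0.022, *Perm1* from -0.060 to 0.12 and *Opa1* from -0.19 to 0.017. Signs also changed for the log2 differences of the ratios of *Ppargc1b* to *Ppargc1a* (-0.47 to 0.41), *Esrrg* to *Esrra* (-0.16 to 0.12, and 0.085 under quantile normalization) and *Nrf1* to *Ppargc1a* (-0.11 to 0.81). *Ppargc1a*, *Ppargc1b*, *Mfn1* and *Dnm1l* kept their direction under all alternatives run, as did the ratios of *Mfn2* to *Mfn1*, of *Perm1* to *Ppargc1a* (0.16 to 1.02 with 1 library left out) and of the fusion genes to *Dnm1l*. The replicate block changed the call of no other member on the deposited scale than *Ppargc1a* and *Ppargc1b*.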
